A study of Homo sapiens with 10 samples.

Results

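The genes described here were the ZNF genes of chromosome 19, which are the protein-coding genes of that chromosome whose symbol is ZNF followed by a number in the GENCODE annotation of GRCh38. They numbered 246 of 1476 protein-coding genes on chromosome 19. They were set against 1145 other protein-coding genes of the same chromosome, with 85 readthrough genes left out, 3 of which are named from ZNF genes. The 263 ZNF genes of other chromosomes served as a further reference.

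Zinc finger proteins of this family bind DNA through an array of C2H2 fingers, in which a pair of cysteines and a pair of histidines hold a zinc ion. Many also carry a KRAB domain, which recruits the co-repressor TRIM28 and with it the histone methyltransferase SETDB1, and many silence transposable elements. The genes arose largely by repeated tandem duplication, so that they lie in clusters on chromosome 19, and the whole finger array is usually encoded by 1 long terminal exon. Over these 3' exons, H3K9me3 is known to be deposited in many cell types, with ZNF274 as one of the proteins that recruit the modifying enzymes.

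The series profiled human induced pluripotent stem cells (hiPSCs) of the line PB010.5, 1 line with a FUCCI cell cycle reporter inserted at EEF2, after digestion without fixation with micrococcal nuclease (MNase), which cuts the DNA between nucleosomes. Digestion lasted 5 min at 5 amounts of enzyme, with 0.5 U and 1 U at the low end, 3 U in the middle and 6 U and 10 U at the high end. There was 1 library per amount, to which yeast nucleosomal DNA had been added, and paired-end reads of 150 bp and of 50 bp were made from each, which gives 10 samples. The values here came from the authors' 1 pooled list of 12921589 nucleosome positions, of which 280246 lie on chromosome 19. The list holds no value per sample or per amount of MNase and no replicates, so no comparison below carries a p-value, and genes and positions are not replicates of a condition. It holds no expression values, so the cell type could not be checked against markers.

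Each position spans 140 bp and carries a score, a height set by the authors whose scaling is not stated and which runs in steps of 1.23. The median score of the whole list was 14.8, with quartiles of 9.87 and 19.7. The number of reads behind a score is unknown. A position was placed by its midpoint, and coordinates are 1-based on GRCh38.

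The finger array is the feature that nearly all members share, and its sequence is shown first because composition and repetition are described beside the values. The longest coding exon held the pattern of at least 1 C2H2 finger in 243 of the 246 members and of at least 3 fingers in 242. The 3 members in which the pattern was not found were ZNF414, ZNF541 and ZNF653. The exon was 1546 bp long in the median, from 344 to 3614 bp, and held 12 fingers in the median, with up to 36. Each finger and its linker span 84 bp. A unit of that length, from the codon of the first cysteine to the base before the next finger, is shown for ZNF91, which silences SVA retrotransposons, for ZNF274, and for ZNF574, which has one of the GC-rich arrays. The GC content of these units was 41.7%, 42.9% and 59.5%. The capitals mark the stretch from 35 to 56 bp of the unit, in which the fewest midpoints fell.
ZNF91 (chr19:23362094-23362177, minus strand): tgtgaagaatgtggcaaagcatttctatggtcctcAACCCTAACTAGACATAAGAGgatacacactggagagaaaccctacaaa
ZNF274 (chr19:58212706-58212789, plus strand): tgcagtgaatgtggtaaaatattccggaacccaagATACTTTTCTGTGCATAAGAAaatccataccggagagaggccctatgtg
ZNF574 (chr19:42079618-42079701, plus strand): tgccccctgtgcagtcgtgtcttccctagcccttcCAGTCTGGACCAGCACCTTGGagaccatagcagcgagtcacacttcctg

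Nucleosome positions over the finger exons had low scores. In the chromosome 19 ZNF genes, 1822 midpoints fell in 385162 bp of longest coding exons, or 4.73 per kb, with a median score of 12.3 (quartiles 9.87 and 17.3). In the other chromosome 19 genes, the density was 5.39 per kb and the median score 19.7 (quartiles 14.8 and 25.9). The ZNF genes of other chromosomes lay between them, with 4.97 per kb and a median score of 14.8. Per gene, the median score of the exon was below the median of the list in 172 of 244 members with a position there (70.5%, 95% Wilson interval 64.5% to 75.9%), in 144 of 1048 other chromosome 19 genes (13.7%, 11.8% to 16.0%) and in 111 of 254 ZNF genes elsewhere (43.7%, 37.7% to 49.8%). The share over all chromosome 19 genes compared was 24.5%. The intervals cover counting error over genes only. The difference between the medians of the per-gene values was -8.64, against an SD of 1.91 over the 8 clusters that hold 10 or more members. In positions of 40% to 50% GC content alone, the difference was -2.47. The exons compared differ in kind. Those of the other chromosome 19 genes had medians of 302 bp, 2 positions and 64.2% GC, against 1546 bp, 7 positions and 40.9% in the members. With exons of at least 1000 bp in both groups (222 members and 146 other genes), the difference was -7.40.

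The range among members is shown by the genes at its ends. Among the 216 members with at least 5 positions in the exon, 14 tied at the lowest median score of 7.40, which is under the lower quartile of the list. They include ZNF181, ZNF254, ZNF525, ZNF534 and ZNF570, and none of the 14 exons had more than 40.9% GC. The highest were ZNF296 (25.9), which is linked to pluripotency and interacts with KLF4, ZNF541 (24.7), in whose exon no finger was found, ZNF324 (24.7), whose exon is unique in 76.2% of its 100-base windows, ZNF584 (22.2) and, tied at 21.0, ZNF574, ZNF358 and ZNF526. All of these but ZNF584, with 48.7%, had exons of 62.1% GC or more. The position nearest the centre of the ZNF584 exon had a score of 22.2 and a GC content of 45.7%. Its 140 bases are shown as an example of a high-scoring position within the finger framework, with the codons of the paired cysteines and histidines in capitals.
ZNF584 (chr19:58417202-58417341, plus strand): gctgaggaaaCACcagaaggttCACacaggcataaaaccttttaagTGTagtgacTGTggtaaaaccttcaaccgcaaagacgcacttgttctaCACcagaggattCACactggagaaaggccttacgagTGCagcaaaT

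In ZNF274 the longest coding exon (chr19:58212161-58213140, plus strand) held 6 positions, with scores of 21.0, 12.3, 23.4, 19.7, 22.2 and 17.3 from its start to its end. All but 1 of them lay above the median of the list, and the exon had 47.6% GC. ZNF91 (chr19:23359406-23362725, minus strand) has 31 fingers in an exon of 3320 bp, and its 9 positions had scores of 9.87, 9.87, 9.87, 8.64, 9.87, 12.3, 9.87, 11.1 and 7.40. None reached the median of the list, and this exon is unique in 88.0% of its 100-base windows. In ZNF296 (chr19:45071604-45072580, minus strand) the 5 scores were 25.9, 27.1, 11.1, 7.40 and 25.9, so that high and low positions stood side by side in 1 exon.

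Other genes with known roles fell on either side of the list's median. ZNF93, which represses LINE-1 elements, had an exon median of 9.87 over 7 positions. ZNF224, a repressor of the aldolase A gene, had 9.87 over 9 positions, and ZNF420, which modulates p53, had 8.64 over 9. ZNF808, needed for pancreas development, had 9.87 over 11. All 4 were below the list's median. ZNF473, which takes part in histone pre-mRNA processing, had 18.5 over 14 positions. ZNF536, a regulator of neuronal differentiation and a single gene apart from the clusters, had 19.7 over 13 positions in an exon of 64.7% GC. ZNF154, known for its methylation in tumours, had 16.0 over 8, while the imprinted gene ZNF331 had 13.6 over 7. ZNF146, whose protein consists almost wholly of fingers, had 10.5 over 4 positions.

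Score and density followed the GC content of the exon. Of the members with an exon below 40% GC, 86 had at least 5 positions, their median score was 9.87, and 83 of the 86 lay below the list's median. In the range from 40% to 45% the median was 12.3 and 59 of 79 lay below. From 45% to 55% the median was 16.0, and 8 of 33 lay below. At 55% and above the median was 17.3, and 2 of 18 lay below. The density rose in the same order, from 4.09 to 4.86, 5.65 and 5.88 midpoints per kb. The counts below the list's median were made for the members only, so they are not particular to them. Exon positions of 35% to 40% GC content had a median score of 9.87 in the members and 11.1 in ZNF genes elsewhere. Across the members, Spearman's rho between exon GC content and exon score was 0.679 (n = 216), and between exon GC content and density 0.509 (n = 222 exons of at least 1000 bp). These are descriptions across genes that share 1 list. The number of fingers was less closely related to the score, with a rho of -0.234 (n = 216).

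**Figure D1:**
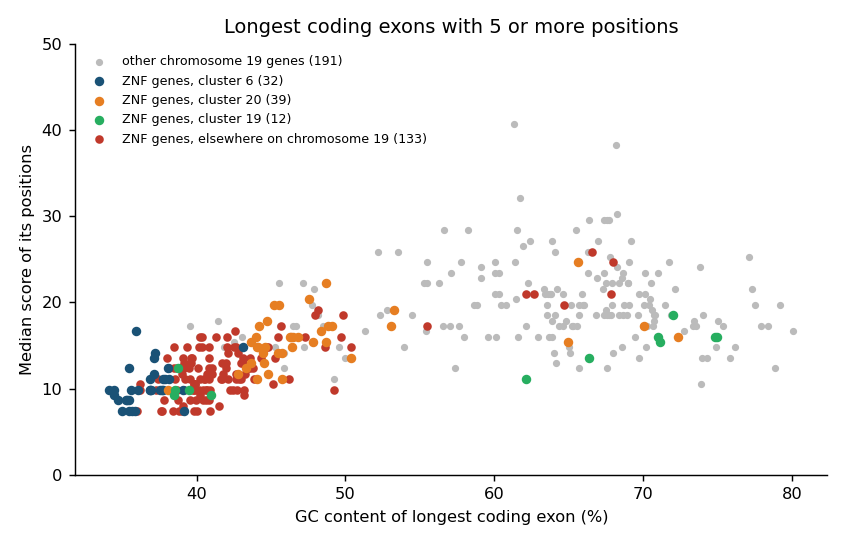
Median score of the positions in the longest coding exon (vertical axis, in score units) against its GC content (horizontal axis, percent), 1 point per gene with at least 5 positions there, for 216 chromosome 19 ZNF genes (coloured, with clusters 6, 19 and 20 set apart) and 191 other chromosome 19 genes (grey). Most ZNF genes lie below 50% GC and below a score of 20, and cluster 6 sits at the lower left.

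With GC content held within bins of 5 percentage points, a smaller difference was left. In exons, the mean score of the members' positions was lower than that of the other chromosome 19 genes in 5 of 5 bins that held at least 50 positions of each, by differences of -2.72 to -1.11. Against the ZNF genes of other chromosomes it was lower in 6 of 7 bins, with a median difference of -0.78. The exon bins shared with the other chromosome 19 genes covered 40% to 55% and 65% to 75% GC. The upper range held only 66 and 54 member positions per bin. Below 40%, with 476 member positions at 35% to 40% alone, the other genes had under 50 per bin, so no comparison was possible there. In introns the members were lower than the other chromosome 19 genes in 10 of 10 bins (-2.81 to -0.47) and lower than ZNF genes elsewhere in 9 of 11. In 3' untranslated regions they were lower in 6 of 7 and in 7 of 7 bins. The ZNF genes of other chromosomes differed from the other chromosome 19 genes by a median of -0.28 in exons and -0.24 in introns. MNase is known to cut A/T-rich DNA more readily, and the part of this preference in the scores was not tested beyond these bins.

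**Figure D2:**
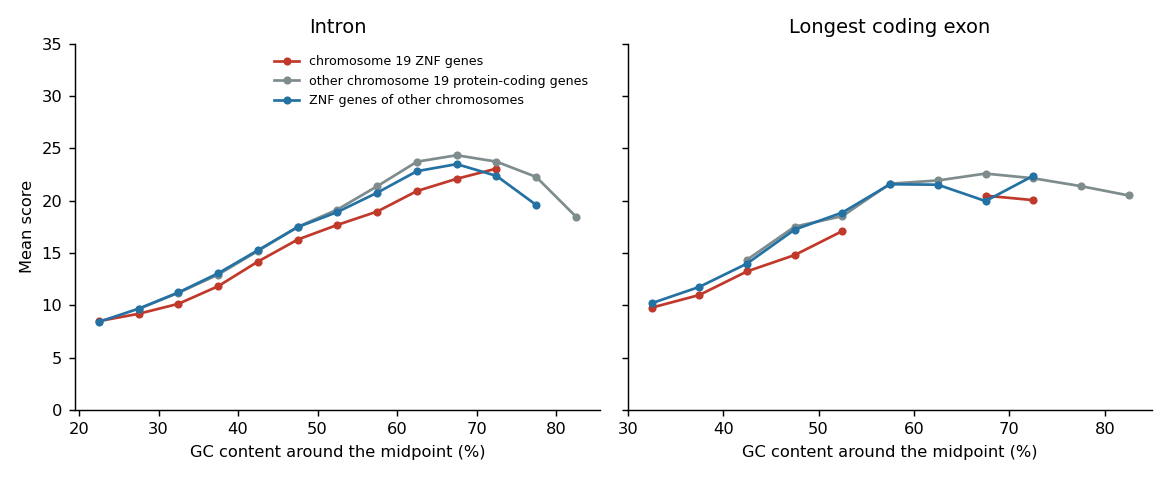
Mean score (vertical axis) of positions in introns (left) and longest coding exons (right) by the GC content of the 73 bp to either side of the midpoint (horizontal axis, percent, bins of 5 percentage points), for the 3 groups of genes; a bin is drawn where a group holds at least 50 positions. In introns the mean score climbs with GC content up to 70%, then falls in both comparison groups and rises further in the chromosome 19 ZNF genes. In exons it climbs up to 70% in the other chromosome 19 genes, by little above 60%, and then falls. In the ZNF genes of other chromosomes it climbs up to 60%, with no steady rise at higher GC. The chromosome 19 ZNF genes lie under the other chromosome 19 genes in every bin that holds both.

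The introns of the members were low as well. They held 18843 midpoints in 4117790 bp, or 4.58 per kb, with a median score of 13.6, against 5.39 per kb and 18.5 in the other chromosome 19 genes. ZNF genes elsewhere had 4.60 per kb and 14.8, a log2 ratio of density of -0.0082. The median intron score was below that of the list in 125 of 241 members with at least 5 positions there (51.9%, Wilson interval 45.6% to 58.1%), in 77 of 1016 other chromosome 19 genes (7.58%) and in 44.5% of ZNF genes elsewhere, where the share over all chromosome 19 genes compared was 16.1%. The intron score followed the intron GC content, with a rho of 0.718 (n = 241).

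Within the same gene, the finger exon was usually lower than the introns. Its median score was above that of the gene's own introns in 47 of 213 members with at least 5 positions in each (22.1%, Wilson interval 17.0% to 28.1%), equal in 16 and lower in 150 (70.4%). Above was seen in 55.6% of 160 other chromosome 19 genes (Wilson interval 47.9% to 63.1%) and 52.9% of 174 ZNF genes elsewhere, and in 36.5% of all chromosome 19 genes compared. Below was seen in 37.5% of the other chromosome 19 genes and 39.7% of ZNF genes elsewhere, and in 56.3% of all. In 146 of the 213, whatever the order of the scores, the exon had the lower GC content than the introns. With positions of 40% to 50% GC content only, the exon was above its own introns in 27.7%. This share covers only members with at least 5 such positions in each, not all 213. It was not taken in the other groups, so the order at matched GC content has no reference. In ZNF254 the exon had 7.40 and the introns 11.1, and in ZNF91 9.87 and 13.6. ZNF274 went the other way, with 20.4 in the exon and 13.6 in the introns. The 3' untranslated region, which is mostly the rest of the same terminal exon, was higher than the coding part in 61 of 140 members and lower in 68, so neither direction prevailed. Neighbouring midpoints lay 180 bp apart in the median (quartiles 130 and 230) in long finger exons, against 170 bp (130 and 210) in the long coding exons of other chromosome 19 genes.

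The arrays are repetitive, and positions were few where the repeats are near-identical between genes. At least 95% of the 100-base windows of the exon occur once in the reference in 226 of the 246 members (91.9%). The same held in 1085 of the 1145 other chromosome 19 genes. The exons of the 226 members held 4.91 midpoints per kb. The other 20 exons held 2.98 per kb, at a similar GC content (medians of 40.9% and 41.0%), and the 4 exons under 60% held 0.66 per kb. No midpoint was listed in the exons of ZNF98 (chr19:22391519-22392981) and ZNF492 (chr19:22663800-22665262), both 1463 bp long, which differ at 14 bases. Their introns had 2.95 and 2.78 midpoints per kb, below the lower quartile of the members (4.34). ZNF417 and ZNF587, equal at 99.1% of 1562 bases, had 2 midpoints each. ZNF585A and ZNF585B, equal at 95.9% of 2015 bases, had 6 midpoints each. Values of such pairs are uncertain, since reads may fit either copy. A finger unit at the same place in the exons of ZNF98 and ZNF492 is shown to make the likeness visible, with the only base that differs in capitals.
ZNF98 (chr19:22392518-22392601, minus strand): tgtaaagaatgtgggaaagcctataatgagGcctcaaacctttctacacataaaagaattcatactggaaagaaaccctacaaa
ZNF492 (chr19:22664180-22664263, plus strand): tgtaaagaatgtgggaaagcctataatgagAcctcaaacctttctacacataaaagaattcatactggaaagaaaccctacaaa

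At the other end, the most midpoints per kb among exons of at least 1000 bp were in ZNF586 (7.67), ZNF837 (7.53) and ZNF329 (7.39), all in the most distal cluster of the chromosome. Their exons were wholly unique in 100-base windows. ZNF837 had 72.3% GC, but ZNF586 and ZNF329 had 43.6% and 45.7%, so a high density was not limited to GC-rich arrays.

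Inside the 84-bp unit, midpoints were not spread evenly. A total of 1047 midpoints fell in 2646 units that were followed by another finger at the same spacing. From 35 to 56 bp of the unit, the stretch in capitals above, there were 203 midpoints (Poisson interval 176 to 233) where an even spread would give 262, a ratio of 0.78. The stretch was chosen after these counts were seen. The ZNF genes of other chromosomes had 115 (94.9 to 138) against 150 in it, a ratio of 0.77. The highest count of a 7-bp bin was 106 and the lowest 65, a ratio of 1.63. The median scores in the bins lay between 11.1 and 13.6, so the low count did not go with a low score. The GC content of the 73 bp to either side of each offset ran from 42.5% to 43.3%. Counting intervals assume independent midpoints, and fingers of 1 gene share their sequence. On chromosome 19, 94.3% of midpoints lie on the same 10-bp grid, which sets the resolution of such offsets.

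**Figure D3:**
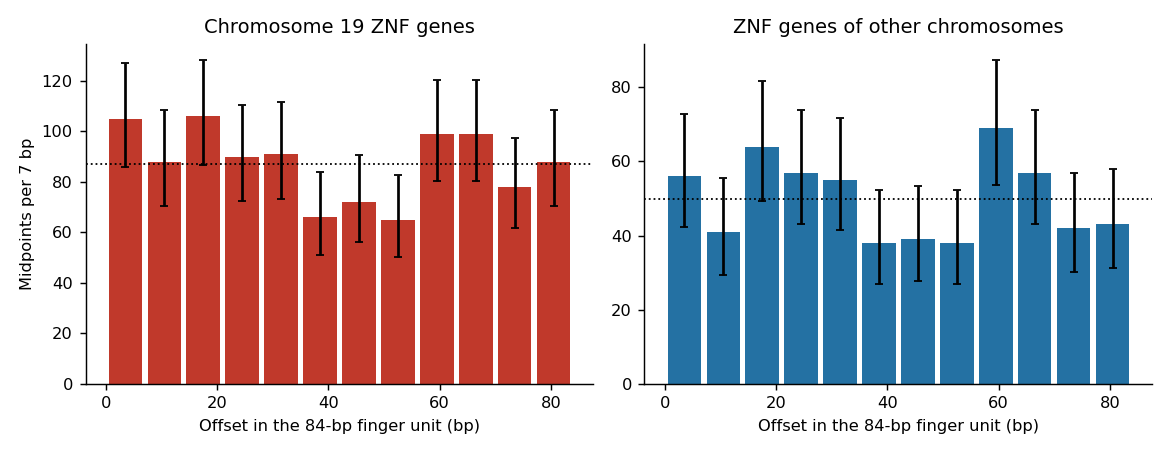
Number of midpoints per 7 bp (vertical axis) by offset in the 84-bp finger unit (horizontal axis, bp from the codon of the first cysteine) in the chromosome 19 ZNF genes (left, 1047 midpoints) and the ZNF genes of other chromosomes (right, 599). Bars are counts, error bars 95% Poisson intervals and dotted lines the even spread. The 3 bins from 35 to 56 bp lie below the line in both.

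At the promoters, positions were regularly placed, and those next to the TSS on its downstream side had high scores. Midpoint density was read relative to that 1000 to 1500 bp from the canonical TSS. In the members it peaked at 135 bp downstream, the +1 nucleosome, at 2.31 times the flanks, with further maxima of 1.79 at 315 bp and 1.59 at 515 bp. In the other chromosome 19 genes the +1 maximum was 1.69 at 115 bp, and in the ZNF genes elsewhere 2.08 at 125 bp. Upstream, the members had a -1 maximum of 1.37 at -215 bp, against 1.10 at the same place in the other chromosome 19 genes. Within 100 bp of the TSS the lowest density was 0.44 at 25 bp in the members and 0.69 at 35 bp in the others. Between the +1 and +2 maxima it fell further, to 0.39 at 225 bp and 0.61 at 205 bp. The mean score within 50 bp of the +1 maximum was 30.8 over 202 midpoints in the members and 30.8 over 810 in the other genes, while in the flanks it was 15.5 and 19.3. Within 50 bp of the -1 maximum the mean was 24.6 and 23.9. The nearest upstream position of each gene, wherever it lay, had a median score of 16.0 in the members and 18.5 in the other genes.

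**Figure D4:**
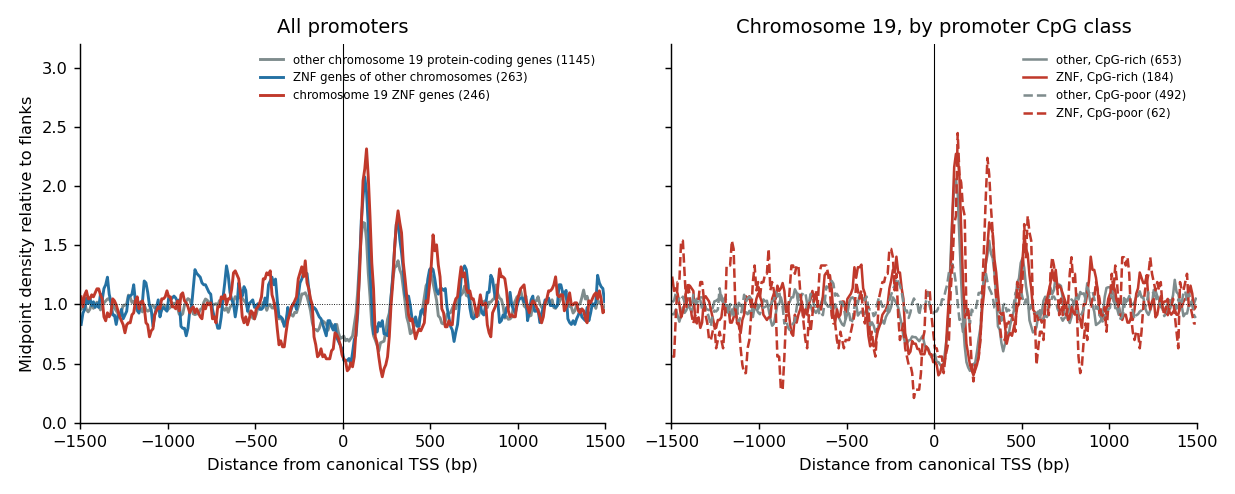
Midpoint density relative to the flanks (vertical axis) by distance from the canonical TSS (horizontal axis, bp), smoothed over 50 bp. Left, all promoters of the 3 groups; right, chromosome 19 promoters by CpG class (solid, CpG-rich; dashed, CpG-poor). The +1 maximum of the ZNF genes reaches 2.31, and their CpG-poor promoters keep a +1 maximum of 2.45 where the other CpG-poor promoters reach 1.34. The CpG-poor classes are not matched for CpG content.

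The 200 bp upstream of the TSS held 170 midpoints over the 246 members, a density of 0.718 relative to the flanks (log2 -0.48). The same region had a log2 density of -0.29 in the other chromosome 19 genes and -0.25 in ZNF genes elsewhere. It was free of midpoints in 97 of 246 members (39.4%, Wilson interval 33.5% to 45.6%), in 301 of 1145 other genes (26.3%, 23.8% to 28.9%) and in 32.3% of ZNF genes elsewhere, where the share over all chromosome 19 genes compared was 28.6%. The gap from the nearest upstream to the nearest downstream midpoint was 290 bp in the median of 245 members (quartiles 205 and 360), 220 bp in the other chromosome 19 genes and 260 bp in ZNF genes elsewhere. A gap of at least 400 bp was seen in 39 members (15.9%) and in 122 of 1127 other genes (10.8%).

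The CpG content of the promoter bore on this comparison. By an observed to expected CpG ratio of at least 0.6 and a GC content of at least 50%, 184 members (74.8%) had CpG-rich promoters, against 57.0% of the other chromosome 19 genes. Among CpG-rich promoters the upstream density was not lower in the members, with log2 values of -0.47 in the members and -0.53 in the other 653 genes. The +1 maxima were 2.27 and 2.06. The CpG-poor classes were not matched for CpG content. Over all promoters, the lower quartile of the observed to expected ratio was 0.613 in the members and 0.339 in the other genes. Among CpG-poor promoters, the 62 members kept a low upstream density (-0.52, 40 midpoints) and a +1 maximum of 2.45. The 492 other CpG-poor genes had an upstream density equal to that of the flanks (log2 -0.0011, 510 midpoints) and a +1 maximum of 1.34. The share of CpG-poor promoters with no upstream midpoint was 45.2% of members, 16.1% of other chromosome 19 genes and 22.0% of ZNF genes elsewhere, with 19.3% over all of chromosome 19. In the CpG-rich class it was 69 of 184 members (37.5%), 222 of 653 other genes and 34.7% of ZNF genes elsewhere, with 34.8% over all. The median gap was 310 bp in members against 200 bp in other genes in the CpG-poor class, and 290 bp against 250 bp in the CpG-rich class.

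The promoter sequences of the members were also searched for short motifs. The letters CCGGAAG, the core bound by ETS-family factors, were searched on both strands from 250 bases before to 50 bases after the canonical TSS. They occurred in 110 of 246 members (44.7%), in 161 of 1145 other chromosome 19 genes (14.1%), in 19.5% of all chromosome 19 promoters compared, and in 31.6% of ZNF genes elsewhere. Among CpG-poor promoters the shares were 54.8% of members and 4.07% of the other chromosome 19 genes (9.75% of all), and among CpG-rich promoters 41.3% and 21.6% (25.9% of all). As above, the CpG-poor classes were not matched for CpG content. CCAAT occurred in 52.8% of members and 36.6% of the other genes (39.5% of all), and TATAAA in 2.85% and 7.95% (7.05% of all). Motifs were counted separately, so a promoter may hold several. Within the members, the median gap was 280 bp in the 110 promoters with CCGGAAG and 300 bp in the 136 without, and the upstream 200 bp were free of midpoints in 42.7% and 36.8%. In the other chromosome 19 genes the gaps were 265 bp with CCGGAAG and 220 bp without, and the shares 41.0% and 23.9%, where 87.6% and 52.0% of the promoters were CpG-rich. Whether the groups differ in this was not tested. A match is a description of the sequence and not of binding.

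The 250 bases upstream of the TSS are shown for 3 members that differ in gap and motif, with CCGGAAG or its complement in capitals. They come from RefSeq promoters of GRCh38.p14, in which 216 members were found by symbol, 197 of them with the canonical TSS as their start. ZNF274 had a narrow gap, ZNF773 the widest of all, and ZNF154 carried no match.
ZNF274 (chr19:58182811-58183060, plus strand): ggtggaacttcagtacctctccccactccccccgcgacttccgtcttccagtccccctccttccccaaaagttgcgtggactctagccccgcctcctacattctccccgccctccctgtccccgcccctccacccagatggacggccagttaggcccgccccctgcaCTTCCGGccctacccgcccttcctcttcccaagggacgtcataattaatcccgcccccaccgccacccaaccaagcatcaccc
ZNF773 (chr19:57499688-57499937, plus strand): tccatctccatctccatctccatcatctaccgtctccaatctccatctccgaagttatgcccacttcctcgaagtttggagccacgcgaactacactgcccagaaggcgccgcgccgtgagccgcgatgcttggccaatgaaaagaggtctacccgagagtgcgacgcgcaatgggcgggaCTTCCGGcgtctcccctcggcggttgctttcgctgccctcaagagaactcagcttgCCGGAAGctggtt
ZNF154 (chr19:57709205-57709454, minus strand): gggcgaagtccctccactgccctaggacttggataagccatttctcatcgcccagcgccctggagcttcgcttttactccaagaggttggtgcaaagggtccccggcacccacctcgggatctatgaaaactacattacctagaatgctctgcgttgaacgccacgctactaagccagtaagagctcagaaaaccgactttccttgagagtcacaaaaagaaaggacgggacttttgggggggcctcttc

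In ZNF274 the nearest downstream midpoint lay 141 bp from the TSS with a score of 44.4, and the nearest upstream one at -29 bp with 9.87. The gap was 170 bp. In ZNF154 the nearest midpoints lay at 122 bp (score 48.1) and -108 bp (6.17), a gap of 230 bp. In ZNF773 the downstream midpoint was at 114 bp (17.3) and the upstream one only at -1046 bp (21.0), a gap of 1160 bp. Of the 100-base windows within 1500 bp of that TSS, 89.6% are unique, below the 100% of the median member. The next widest gaps were 700 bp in ZNF587, 620 bp in ZNF253 and ZNF627, and 580 bp in ZNF547. In all 5, the downstream midpoint lay from 93 to 130 bp and the width came from the upstream side. ZNF285 had no midpoint within 1500 bp of its TSS and gave no gap.

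The nearest downstream position lay 123 bp from the TSS in the median member. The median was 108 bp in the other chromosome 19 genes and 122 bp in ZNF genes elsewhere. It fell between 100 and 180 bp in 152 of 245 members (62.0%), a share not counted in the other groups, and its median score there was 30.8. In the 72 members where it fell closer, the median was 17.9, and in the 21 where it fell farther, 19.7. Over all members the score of this position was 24.7 in the median (2.47 at the lowest, 93.8 at the highest), the same as the 24.7 of the other chromosome 19 genes. It was above the list's median in 197 of 246 members (80.1%, Wilson interval 74.6% to 84.6%) and in 78.4% of the other genes, beside a share of 78.7% over all chromosome 19 genes compared, with genes that lack such a position counted as not above it. It was higher than the median of the gene's own finger exon in 179 of 215 members (83.3%), in 60.5% of 190 other chromosome 19 genes, in 72.3% of ZNF genes elsewhere and in 72.6% of all chromosome 19 genes compared. ZNF181, whose exon is unique in 88.3% of its 100-base windows, had the contrast in full. It had 65.4 next to the TSS and 7.40 in the exon. ZNF91 had 35.8 and 9.87, and ZNF808 43.2 and 9.87. ZNF570 did not show it as strongly, with 8.64 and 7.40, and in ZNF296 the order was turned, with 18.5 and 25.9.

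The members lie in 20 clusters or single genes, taken as runs of starts less than 500 kb apart and numbered along the chromosome, and the 8 clusters with at least 10 members hold 222 of them. Cluster 6, the pericentromeric run of 37 genes from ZNF101 to ZNF254 (chr19:19668796-24129968), which includes ZNF91 and ZNF93, had the lowest exon values of these 8. Its exons held 3.69 midpoints per kb with a median score of 9.87 at 36.9% GC, and its introns 4.02 per kb with 12.3. The share of unique 100-base windows in its exons was 100% in the median but 53.7% at the lowest. They include the exons of ZNF98 and ZNF492, which held no midpoint and count in this density. Cluster 20, the telomeric run of 43 genes from ZNF264 to ZNF446 (chr19:57191500-58481230), which includes ZNF274 and ZNF154, had 5.33 per kb and 15.4 in exons of 45.7% GC. It also had the highest score at the nearest downstream position of these 8 clusters, with a median of 35.8, against 22.2 in cluster 6. Cluster 19, of 16 genes from ZNF628 to ZNF835, held exons of both kinds. In 5 of them the exon had 38.5% to 41.0% GC and a median score of 9.25 to 12.3, and in the other 11 it had 62.1% GC or more and a score of 11.1 to 30.8.

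Promoters differed between clusters as well. Cluster 4, of 25 genes from ZNF653 to ZNF791 (chr19:11483427-12640098), had the lowest upstream density, with a log2 of -1.52 and a median gap of 350 bp. Cluster 20 followed with -0.83 and 340 bp. Cluster 3, of 13 genes from ZNF414 to ZNF846, was the only one of the 8 with more midpoints upstream than in the flanks, with a log2 of 0.35 and a gap of 220 bp. In cluster 6 the values were -0.27 and 250 bp. The +1 maximum of the 8 clusters lay between 115 and 155 bp. With 13 to 43 genes per cluster, these densities rest on few midpoints each.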

How the data were processed

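Human iPSCs of the line PB010.5 were profiled by MNase-seq at 5 amounts of enzyme. According to the methods, reads were trimmed (Trimmomatic 0.40 in the submitters' processing notes), aligned to GRCh38 and run through the nucMACC workflow with blacklisted regions removed. The deposited list gives, per position of 140 bp, a signal score set by the authors on pooled libraries. The runs pooled, the caller and the scaling are not given in the sources used here, so the depth behind a score is unknown. On chromosome 19 every score was within 0.02 steps of a whole multiple of 1.23.

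Gene models came from GENCODE release 44, where the methods name release 48. The canonical transcript gave TSS, introns (bases outside any exon), longest coding exon and 3' untranslated region. Densities around the TSS were counted in 10-bp bins, smoothed over 5 bins. The upstream region was 200 bp, and the +1 maximum was sought up to 300 bp. GC content was taken over the midpoint and 73 bp to either side. A finger was C, 2 residues, C, 12 residues, H, 3 to 5 residues, H. Uniqueness was counted over 100-base windows of the reference. With 1 list there is no replicate and no test was made. Wilson and Poisson intervals (95%) cover counting error only. The members and lists were chosen with earlier results of these data known. Named genes were 12 with known roles, the 5 highest and 5 lowest exon scores (ties cut by order of symbol, from the start for the lowest and from the end for the highest), the 5 widest gaps, the 3 highest and 3 lowest exon densities, and members without a position in a feature, beside ZNF585A, ZNF585B, ZNF358, ZNF526, ZNF414 and ZNF653, named after their values were seen. Calculations ran in Python 3.11.15 with numba 0.67.0, pandas 2.3.3, SciPy 1.17.1 and NumPy 2.4.6 and were tested on simulated positions. Alternatives were other sets of positions, start sites, intron and overlap definitions, comparison genes, unique or long exons, GC-restricted positions and leaving out each large cluster.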

Additional observations from a re-analysis of the deposited data

How the results depend on the processing

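Each of the 10 summary values was recomputed under 9 to 14 alternatives. Of the 119 recomputed values, 111 stayed within the spread (the SD over the 8 clusters of 10 or more members, the Wilson interval for the exon against own introns, and the counting interval for the finger phase), and no value other than the downstream score difference changed sign. Most alternatives left out 1 of these clusters and were judged by the SD between the same clusters, so few could have moved. For the upstream density the SD (0.54) exceeded the size of the value itself (-0.48). The count of 111 therefore says little about robustness. With positions at or above the list's median score only, the gap was 380 bp, the log2 ratio of intron density -0.72 instead of -0.24 and that of exon density -1.15 instead of -0.19. This follows from leaving out low positions, which are more frequent in the members. With positions of 40% to 50% GC content, the score difference was -2.47 in exons instead of -8.64 and -1.23 in introns instead of -4.94. With ZNF genes of other chromosomes as the comparison, added after seeing the data, the log2 ratio of intron density was -0.0082, and the score differences were -1.23 in introns and -2.78 in exons. Restricting both groups to CpG-rich promoters, also added after seeing the data, left the members' own values at the TSS within the spread but turned the comparison of upstream density. The members minus the other genes had a log2 difference of -0.19 over all promoters and of 0.07 over CpG-rich ones, because the other genes moved from -0.29 to -0.53. The difference in gap fell from 70 to 40 bp. Leaving out each large cluster gave exon score differences from -9.25 to -8.64, intron differences from -4.94 to -3.70, gaps from 290 to 300 bp and upstream log2 densities from -0.53 to -0.39. The difference of the downstream score, 0 in the main comparison, ranged from -1.23 to 1.23, 1 step to either side. No density was computed for GC-restricted positions. No paired analysis was possible because the positions are a pooled list and no sample has a value of its own. Without replicates, the error of any score or density is unknown.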
